A study of Rattus norvegicus with 36 samples.

Results

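Transthyretin (*Ttr*, ENSRNOG00000016275) and klotho (*Kl*, ENSRNOG00000001092), 2 of the 23965 genes in the count table, were followed through all 36 striatal RNA-seq libraries. They were chosen as markers of choroid plexus, a tissue that lies in the brain ventricles, and the genes whose levels followed *Ttr* from library to library were then sought among 15453 other genes. Each library held the polyadenylated RNA of the striatum of 1 male Sprague Dawley rat aged 2 months. Rats were either wildtype (WT) or BACHD (TG), which carry a bacterial artificial chromosome with the full-length human mutant huntingtin gene under its own regulatory sequences, in addition to the rat gene. They were raised in a standard environment (SE), in an enriched environment of larger, furnished group cages after weaning (EE), or with early life stress (ELS), for which pups were parted daily from the dam. Each of the 6 groups, WT_SE, TG_SE, WT_EE, TG_EE, WT_ELS and TG_ELS, held 6 animals, and TG animals and WT littermates of 1 litter shared an environment. The labels do not give the litter of an animal, so that litter mates within a group cannot be told apart from independent animals.

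The epithelium of the choroid plexus secretes cerebrospinal fluid and forms a barrier between blood and fluid. Transthyretin is a carrier of thyroxine and of retinol-binding protein and is the protein for which this epithelium is best known, and its transcript is a customary marker of choroid plexus in brain tissue. Klotho is a membrane protein that serves as co-receptor for the hormone FGF23, is also shed from the cell surface, and is known from kidney and choroid plexus. The striatum borders the lateral ventricle, in which choroid plexus lies. In RNA from a whole dissection, fewer cells of a type and less RNA per cell cannot be told apart.

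The promoter sequences of both genes are shown because they are the regulatory sequence closest to each annotated start. A link between these sequences and the levels of the genes was not tested. The sequences run from 250 bases before to 50 bases after the RefSeq start in the rat assembly GRCr8, on the plus strand, at chr18:12218508-12218807 for *Ttr* and at chr12:5325753-5326052 for *Kl*. The assembly differs from the Ensembl release used for the counts. Capitals mark matches to the motifs searched, on either strand, which were the forkhead core TATTGAC, a second forkhead core TGTTTAC, the OTX core TAATCC, the TATA box TATAAA, the CCAAT box, the GC box GGGCGG and the E box CACGTG. No match of one motif overlapped that of another.
Ttr: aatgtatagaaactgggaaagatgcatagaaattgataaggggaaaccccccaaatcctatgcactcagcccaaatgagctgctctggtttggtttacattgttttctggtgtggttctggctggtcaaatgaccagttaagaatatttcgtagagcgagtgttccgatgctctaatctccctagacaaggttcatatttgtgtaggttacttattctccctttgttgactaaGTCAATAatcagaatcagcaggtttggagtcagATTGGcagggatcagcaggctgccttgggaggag
Kl: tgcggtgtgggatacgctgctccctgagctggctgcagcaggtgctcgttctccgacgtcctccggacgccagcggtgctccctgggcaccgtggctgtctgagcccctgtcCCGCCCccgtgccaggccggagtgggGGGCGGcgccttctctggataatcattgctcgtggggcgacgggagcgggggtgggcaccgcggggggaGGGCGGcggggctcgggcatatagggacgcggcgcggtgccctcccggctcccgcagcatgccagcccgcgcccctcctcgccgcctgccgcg

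The 2 promoters differed in composition. The *Ttr* window had a GC content of 43.7%, lower than the median of 51.7% over 33469 rat promoters, of which 20.9% were lower than *Ttr*. It held 1 match of the forkhead core TATTGAC on the minus strand at position −17 from the start, a motif found in 1.49% of all promoters of this length. It also held 1 CCAAT match on the minus strand at position 17, a motif present in 37.5% of promoters. The *Kl* window had a GC content of 75.0%, and 96.8% of promoters were lower. It held 3 matches of GGGCGG, at position −138 on the minus strand and at positions −112 and −43 on the plus strand, and 33.1% of promoters held at least 1. No motif searched was found in both windows. The second forkhead core, the OTX core, the TATA box and the E box, which 3.78%, 7.17%, 14.2% and 6.42% of promoters held, were in neither window. These are letter matches only, and the motifs were chosen after the sequences had been read.

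Libraries held between 9895073 and 19284439 counts, with a median of 12523871. Levels are given in CPM, the counts of a gene per 1000000 counts of the library. The deposited rows carry Ensembl identifiers without symbols, and no table used here pairs them. The names of *Ttr* and *Kl* are those given with their identifiers, further markers of choroid plexus, ependyma or striatal neurons were not looked up, and neither the tissue label nor the transgene was checked through such markers. The 2 genes themselves thus stand alone as the check of the label choroid plexus.

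*Ttr* differed widely between libraries, also within groups. Its level ran from 1.72 CPM in a TG_ELS animal to 8688 CPM in a WT_SE animal, with a median of 13.3 CPM over all 36. In WT_SE the 6 animals had 7.32, 8.51, 199, 1162, 3812 and 8688 CPM, with a median of 681 CPM. The group therefore held both low and high animals, and its members were up to 3 orders of magnitude apart. In WT_EE, the lowest animal had 6.27 CPM, the median was 12.8 CPM and the highest had 1565 CPM, while the second highest had 18.3 CPM. In TG_EE, *Ttr* had a lowest value of 6.62 CPM, a median of 20.9 CPM and a highest value of 3611 CPM, and the second highest was 135 CPM. Each of these EE groups thus had 1 animal over 1000 CPM, and TG_EE had 1 more over 100 CPM. The other groups stayed below 100 CPM. TG_SE ran from 2.28 CPM through a median of 6.42 CPM to 35.9 CPM. WT_ELS ran from 2.20 CPM through a median of 9.88 CPM to 54.5 CPM, and TG_ELS from 1.72 CPM through 10.7 CPM to 44.0 CPM.

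Counting error was small beside these differences. The highest library, replicate 6 of WT_SE, held 118148 *Ttr* counts, which were 0.869% of all its counts, and the exact 95% binomial interval of its level was 8639 to 8738 CPM. The lowest library held 23 counts, with an interval of 1.09 to 2.58 CPM. Such intervals cover counting error only. *Ttr* was detected in all 36 libraries, those below 10 CPM included.

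*Kl* was high in the same libraries. In WT_SE its lowest value was 0.431 CPM, its median 18.7 CPM and its highest 191.6 CPM, with 69.3 CPM in the second highest animal. In WT_EE, the values ran from 0.403 CPM through a median of 1.09 CPM to 37.7 CPM, and the second highest was 1.43 CPM. In TG_EE, they ran from 0.321 CPM through a median of 0.849 CPM to 90.1 CPM, and the second highest was 2.69 CPM. The 5 libraries over 1000 CPM of *Ttr* were also the 5 highest in *Kl*. In TG_SE, *Kl* ran from 0.298 to 1.32 CPM with a median of 0.753 CPM. In WT_ELS, it ran from 0.591 to 1.50 CPM with a median of 0.978 CPM, and in TG_ELS from 0.242 to 1.40 CPM with a median of 0.353 CPM. These low levels rested on few reads, since the lowest *Kl* count was 3, for which the exact 95% interval was 0.0499 to 0.707 CPM, and the highest of the 36 was 2605.

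**Figure D1:**
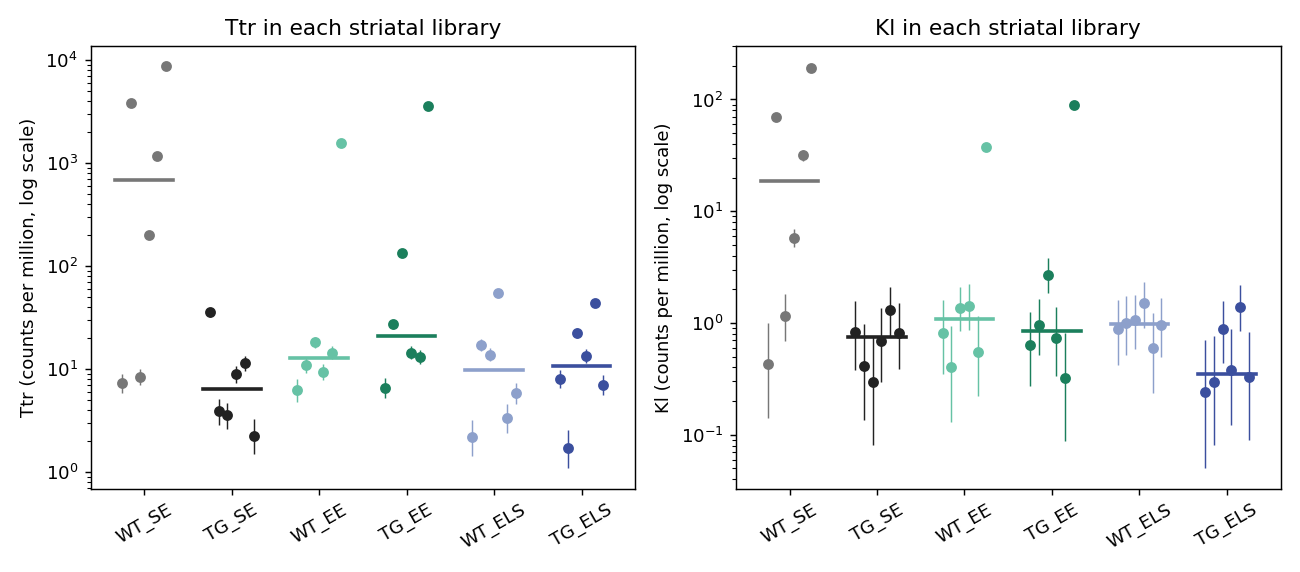
CPM of *Ttr* (left) and *Kl* (right) on log axes in each of the 36 libraries, by group in order of replicate number. Points are single animals, vertical lines their exact 95% binomial intervals and horizontal lines the group medians, and the animals of WT_SE spread from 7.32 to 8688 CPM of *Ttr* while those of TG_SE, WT_ELS and TG_ELS all lie below 100 CPM.

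Ordered by their median *Ttr* level, the groups were WT_SE, TG_EE, WT_EE, TG_ELS, WT_ELS and TG_SE. No neighbours in this order were separated, since the range of every group overlapped with that of the next. Ordered by the median *Kl* level, they were WT_SE, WT_EE, WT_ELS, TG_EE, TG_SE and TG_ELS, and again every range overlapped with that of its neighbour.

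The libraries fell into separate clusters, because none had between 199 and 1162 CPM of *Ttr*. Over 1000 CPM were replicates 2, 5 and 6 of WT_SE, replicate 6 of WT_EE and replicate 6 of TG_EE. Replicate 4 of WT_SE and replicate 3 of TG_EE, with 199 and 135 CPM, were the only others over 100 CPM. These 7 libraries held 98.0% of all *Ttr* counts and 95.1% of all *Kl* counts of the series, beside 20.6% of the counts of all genes. Of the 7 animals, 5 were WT, and none came from an ELS group or from TG_SE.

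The labels number the libraries from 1 to 36, such that every 6 numbers in a row form a run with 1 animal per group. What the numbers stand for is not stated. Of the 5 libraries over 1000 CPM, 3 were in the sixth run, where *Ttr* had a median of 786 CPM, whereas the medians of runs 1 to 5 lay between 6.97 and 16.1 CPM. The second and the fifth run had 1 such library each, and the highest level in the first run was 35.9 CPM. In 5 of the 6 runs, the WT_SE animal had more *Ttr* and more *Kl* than the TG_SE animal. The part of the runs in the levels was not tested apart from the fit described further on.

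*Kl* varied almost in proportion to *Ttr* where *Ttr* was high. Per 100 *Ttr* counts, the libraries over 1000 CPM had 2.20 *Kl* counts in replicate 6, 1.82 in replicate 2 and 2.72 in replicate 5 of WT_SE, 2.41 in replicate 6 of WT_EE and 2.496 in replicate 6 of TG_EE. The ratio thus varied 1.50-fold across these 5 libraries while *Ttr* itself varied 7.48-fold. With the libraries at 199 and 135 CPM included, which had 2.91 and 1.99 *Kl* counts per 100, it varied 1.60-fold over a 64.3-fold range of *Ttr*. These ratios are of counts not corrected for transcript length and say nothing about which transcript was more abundant. In the 29 libraries below 100 CPM, the ratio ranged from 2.33 to 40.0, with only 3 to 21 *Kl* counts in each. Among the latter, the 3 libraries with the most *Ttr*, at 54.5, 44.0 and 35.9 CPM, had ratios of 2.75, 3.19 and 2.33.

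Within the 31 libraries up to 1000 CPM, *Kl* and *Ttr* were correlated on the scale of log2(CPM + 0.5). Pearson's r was 0.73 (permutation p = 1e-05, the smallest that 100000 draws can give, adjusted p = 2e-05) and Spearman's rho was 0.58 (permutation p = 0.00075, adjusted p = 0.00075 over the 2 coefficients). Without the 2 libraries farthest from the median of *Ttr*, replicate 4 of WT_SE and replicate 3 of TG_EE, r was 0.48 (permutation p = 0.00856) and rho 0.49 (permutation p = 0.00788) in 29 libraries. The relation therefore did not rest on those libraries alone. After each group mean was subtracted, r was 0.76 and rho 0.70 in the 31 libraries. Within runs of library numbers, the relation did not hold throughout. In the first run, where *Ttr* stayed at or below 35.9 CPM, r was −0.011 and rho −0.43 in 6 libraries (exact permutation p = 0.819 and 0.419). In the third run r was 0.90 and rho 0.60 (exact permutation p = 0.0417 and 0.242), and in the fourth run r was 0.86 and rho 0.71 (exact permutation p = 0.0917 and 0.136), with 6 libraries each. The highest *Ttr* levels in these runs were 135 and 199 CPM. The other runs held 3 to 5 libraries up to 1000 CPM, under the 6 set as the least number for a coefficient, and none was computed.

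**Figure D2:**
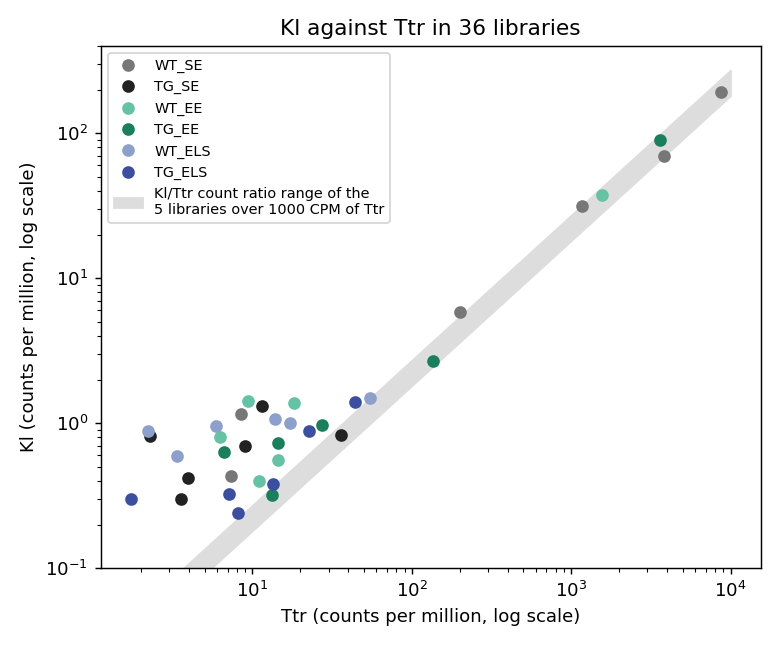
*Kl* against *Ttr* in CPM on log axes, 1 point per library coloured by group, with a grey band for the range of the count ratio in the 5 libraries over 1000 CPM of *Ttr*, 1.82 to 2.72 *Kl* counts per 100 *Ttr* counts. The 2 libraries at 135 and 199 CPM lie in or just above the band, and most libraries with less *Ttr* lie above it.

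The question of whether genotype or environment moved these markers was addressed on the levels first, by a two-sided exact permutation test of mean log2(CPM + 0.5) with 6 animals against 6. The smallest p such a test allows is 0.0022, and adjusted p-values are Benjamini-Hochberg values over 14 tests. The groups overlapped in each of the 14 comparisons. TG_SE had lower levels than WT_SE, by −5.22 on the log2 scale for *Ttr* (exact permutation p = 0.0281, adjusted p = 0.152) and by −3.42 for *Kl* (exact permutation p = 0.0281, adjusted p = 0.152). For each gene, 4 of 6 WT_SE animals were above every TG_SE animal, and the remaining 2 were within the TG_SE range. WT_ELS against WT_SE gave −4.85 for *Ttr* (exact permutation p = 0.0325, adjusted p = 0.152) and −3.11 for *Kl* (exact permutation p = 0.0476, adjusted p = 0.152). These comparisons share the WT_SE animals, and no difference passed an adjusted p of 0.1. Without replicate 1 of WT_SE, one of its low animals, these 4 differences had an adjusted p of 0.0606 (exact permutation test). For each of them, the other 11 of the 12 fits that left out 1 animal did not pass 0.1. Without replicate 2 of WT_SE, a high animal, TG_SE against WT_SE had an adjusted p of 0.182 for both genes (exact permutation test).

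The other comparisons of *Ttr* gave 2.76 for TG_EE against TG_SE (exact permutation p = 0.0649, adjusted p = 0.152), where 2 TG_EE animals were above every TG_SE animal. WT_EE against WT_SE gave −3.43 (exact permutation p = 0.154, adjusted p = 0.269). The differences of *Ttr* were 0.98 for TG_EE against WT_EE, 0.19 for TG_ELS against WT_ELS and 0.56 for TG_ELS against TG_SE, with adjusted p-values of 0.626, 0.835 and 0.626 from the exact permutation test. For *Kl*, TG_ELS against WT_ELS gave −0.53 (exact permutation p = 0.0541, adjusted p = 0.152), and 4 of 6 TG_ELS animals were below every WT_ELS animal. That contrast held no library over 100 CPM of *Ttr*, and its *Kl* values rested on 3 to 19 counts. *Kl* differed by −2.43 between WT_EE and WT_SE, by 1.24 between TG_EE and TG_SE, by 0.25 between TG_EE and WT_EE and by −0.22 between TG_ELS and TG_SE, and the adjusted p-values from the exact permutation test were 0.264, 0.424, 0.797 and 0.624.

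In the model fitted across 12657 genes with a mean count of at least 50, neither gene was called in any comparison. The model was an edgeR quasi-likelihood fit with 1 mean per group and 5 surrogate variables, which are unwanted factors estimated from the counts of all genes. Over the 36 libraries, the first of these had a Pearson's r of 0.93 with *Ttr* and 0.97 with *Kl*. The fit thus took up most of the variation of both genes, so its lack of a call cannot decide whether their levels differed between groups. A gene counted as called when its Benjamini-Hochberg adjusted p was 0.1 or less and its log2 fold change at least 0.3 in size. TG_SE against WT_SE gave a log2 fold change of −1.07 ± 0.58 (SE) for *Ttr* (edgeR adjusted p = 0.848) and −0.76 ± 0.43 for *Kl* (edgeR adjusted p = 0.852), beside 27 genes called, 0.213% of those tested. TG_EE against WT_EE gave 0.42 ± 0.50 for *Ttr* and 0.30 ± 0.32 for *Kl*, beside 52 genes called or 0.411%. TG_ELS against WT_ELS gave 0.37 ± 0.64 for *Ttr* and −1.15 ± 0.50 for *Kl* (edgeR adjusted p = 0.607), beside 17 genes called or 0.134%.

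The environments and the interactions gave no called gene with this edgeR fit (0%). Per comparison, 386 to 777 of the 12657 genes fell under 0.05 before adjustment. Chance alone would put a fraction of about 0.05 of them there, so these counts by themselves show no effect. With DESeq2 and identical surrogate variables, 2 genes passed in WT_EE against WT_SE and none in the others. In WT_EE against WT_SE, the log2 fold change was −0.40 ± 0.44 for *Ttr* and −0.18 ± 0.27 for *Kl*. In WT_ELS against WT_SE, it was −1.03 ± 0.57 for *Ttr* and −0.23 ± 0.38 for *Kl*. TG_EE against TG_SE gave 1.09 ± 0.61 and 0.88 ± 0.44, and TG_ELS against TG_SE gave 0.41 ± 0.59 and −0.62 ± 0.50, for *Ttr* and *Kl* in this order. The interaction of genotype with EE was 1.49 ± 0.81 for *Ttr* and 1.06 ± 0.58 for *Kl*, and that with ELS was 1.44 ± 0.84 and −0.40 ± 0.65. The edgeR adjusted p-values of both genes were at least 0.828 in each of these comparisons.

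These values depended on the surrogate variables. Without them, the same edgeR fit gave a log2 fold change of −7.74 ± 1.83 for *Ttr* and −6.09 ± 1.40 for *Kl* in TG_SE against WT_SE, and both genes were called (edgeR adjusted p = 0.0552 for each) among 83 genes, 0.656% of those tested. *Ttr* then had the most negative fold change of all 12657 genes. *Kl* had a mean of 165 counts per library but a median of 10.5, so it passed the filter only through the libraries in which it is high. Of the 7 libraries over 100 CPM of *Ttr*, 4 were in WT_SE. Calls of *Kl* against WT_SE thus describe those libraries and are no test of a group. Fits without surrogate variables were not repeated with single animals left out. WT_ELS against WT_SE gave −7.13 ± 1.77 for *Ttr* and −5.59 ± 1.34 for *Kl* without surrogate variables (edgeR adjusted p = 0.118 for each), which was not called, with no gene called (0%). TG_EE against TG_SE gave 5.94 ± 1.72 and 4.50 ± 1.44 (edgeR adjusted p = 0.521 for each), also with no gene called. The TG/WT comparisons in EE and ELS called 21 and 9 genes without surrogate variables, 0.166% and 0.0711%, and neither *Ttr* nor *Kl* was among them.

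The calls also changed when the 6 runs of library numbers were the covariate in place of the surrogate variables. TG_SE against WT_SE then gave −5.93 ± 1.60 for *Ttr* (edgeR adjusted p = 0.0753) and −5.63 ± 1.01 for *Kl* (edgeR adjusted p = 0.00374), both called among 144 genes, 1.14% of those tested. In WT_ELS against WT_SE, *Kl* was called at −4.92 ± 0.95 (edgeR adjusted p = 0.0239) among 50 genes or 0.395%, whereas *Ttr*, at −5.55 ± 1.48 (edgeR adjusted p = 0.122), was not. In the interaction of genotype with EE, *Kl* was called at 6.47 ± 1.31 (edgeR adjusted p = 0.0558) among 8 genes or 0.0632%, and *Ttr* was at 7.30 ± 1.98 (edgeR adjusted p = 0.373). Each of these comparisons holds the WT_SE animals, and the limit given above on calls of *Kl* applies to them.

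**Figure D3:**
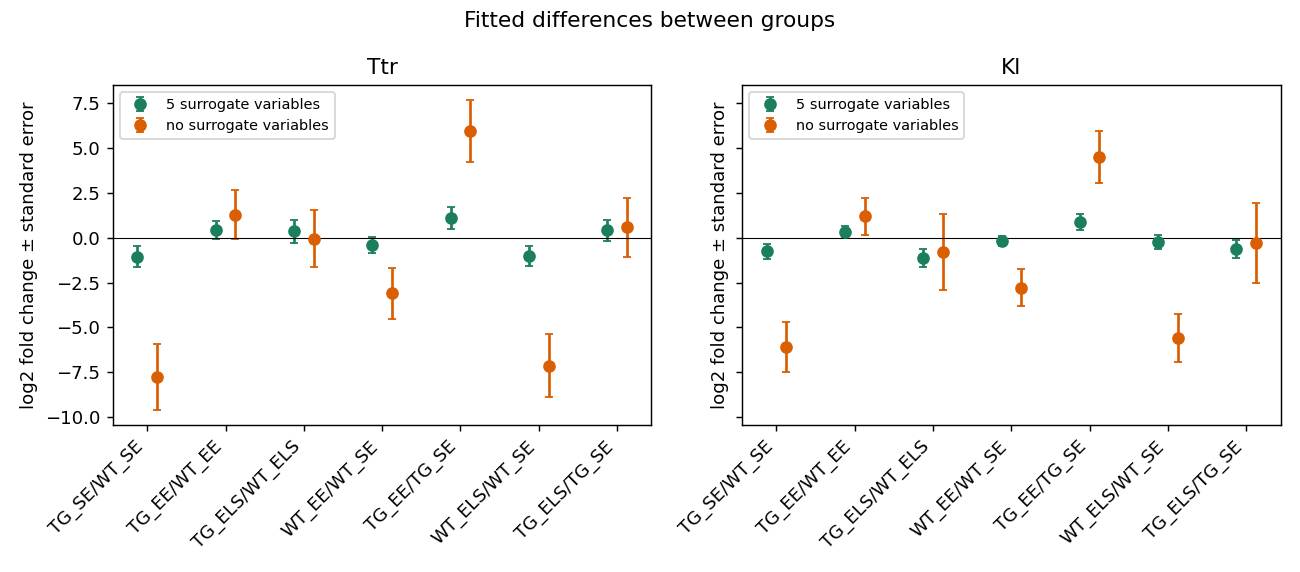
Fitted log2 fold changes of *Ttr* (left) and *Kl* (right) for 7 comparisons of 2 groups, with 5 surrogate variables (green) and without (orange), bars showing 1 standard error. Without surrogate variables TG_SE against WT_SE lies at −7.74 for *Ttr* and −6.09 for *Kl*, and with them at −1.07 and −0.76.

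The first surrogate variable separated the same libraries as *Ttr*. Its values, in arbitrary units and with an arbitrary sign, were 0.566, 0.324 and 0.297 in replicates 6, 2 and 5 of WT_SE, 0.400 in replicate 6 of TG_EE and 0.339 in replicate 6 of WT_EE. The next highest value was 0.0975 in replicate 4 of WT_SE, and the others lay between −0.151 and 0.0362. Group alone accounted for 34.1% of the variance of log2(CPM + 0.5) of *Ttr* over the 36 libraries and for 34.2% of that of *Kl*. Group and the 5 surrogate variables together accounted for 94.1% and 98.0%. As the surrogate variables were estimated from the same counts, these shares are descriptions. Surrogate variables and the unequal spread of high libraries over the groups cannot be told apart in such a fit, since 3 of the 5 high libraries were in WT_SE.

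**Figure D4:**
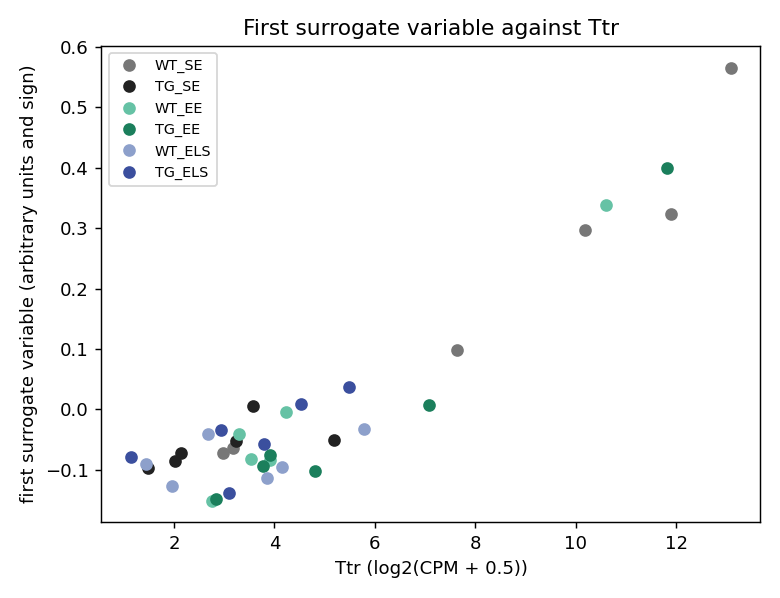
First surrogate variable of the model (arbitrary units and sign) against log2(CPM + 0.5) of *Ttr*, 1 point per library coloured by group. The 5 libraries over 1000 CPM of *Ttr* have values between 0.297 and 0.566, and replicate 4 of WT_SE, at 0.0975, lies between them and the rest.

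By rank, a small set of genes followed *Ttr* from library to library. The measure of likeness was Spearman's rho of log2(CPM + 0.5) over the 36 libraries, among 15453 other genes with a mean count of at least 10. It is given as a description, since the genes of a library share its depth and preparation, and libraries fell into the clusters above. The median rho was 0.018 (SD 0.175 over genes), 66 genes reached 0.5, 9 reached 0.7, and 3 were at −0.5 or below. *Kl* ranked 9, with a rho of 0.73. By Pearson's r it ranked 5, with 0.95, and it ranked 3 with a rho of 0.85 once group means were subtracted. The set was larger by Pearson's r, with 523 genes reaching 0.5 and 157 reaching 0.7. With group means subtracted, 188 genes reached a rho of 0.5 and 21 reached 0.7.

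The gene with the highest rho was ENSRNOG00000057855 (rho 0.88), which had a median of 5.5 counts per library and 4325 counts in replicate 6 of WT_SE. It was followed by ENSRNOG00000005770 (rho 0.83), with a median of 3 counts and a highest count of 1772, also in replicate 6 of WT_SE. Most libraries thus held only a few reads of either gene. At the other end were ENSRNOG00000043145 (rho −0.60), with 11 to 31 counts per library, and ENSRNOG00000042682 (rho −0.52), with 185 to 338 counts. These spanned a much narrower range of counts than the genes of highest rho.

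The 20 genes with the highest rho, *Kl* among them, ranged in rho from 0.60 to 0.88. All 20 were highest in replicate 6 of WT_SE, and 18 of 20 had the same 5 libraries at the top as *Ttr*. As the genes were chosen by their rho with *Ttr*, shared top libraries largely restate that choice. The ratios and shares that follow describe the genes so chosen. The ratio of the gene's counts to *Ttr* counts varied between 1.22-fold and 6.76-fold over those 5 libraries, with a median of 1.42-fold, and it varied less than 2-fold for 16 genes. The 7 libraries over 100 CPM held a median of 91.9% of the counts of these genes, from 24.1% to 97.7%, and over 50% for 17 of them. Low counts were common outside these libraries. The median count per library was under 10 for 11 of the 20 genes, and 8 of the 20 had libraries without a read. Those 11 genes passed the mean count of 10 mainly through their high libraries, so their shares of counts there were partly set by the filter. In the 31 libraries up to 1000 CPM alone, the rho of the 20 genes with *Ttr* lay between 0.37 and 0.81. The gene ranked 14th by rho was of another kind, with 187 to 537 counts in every library and 25.2% of its counts in the 7 libraries, and so was the gene ranked 20th, with 33 to 101 counts and 24.1%.

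**Figure D5:**
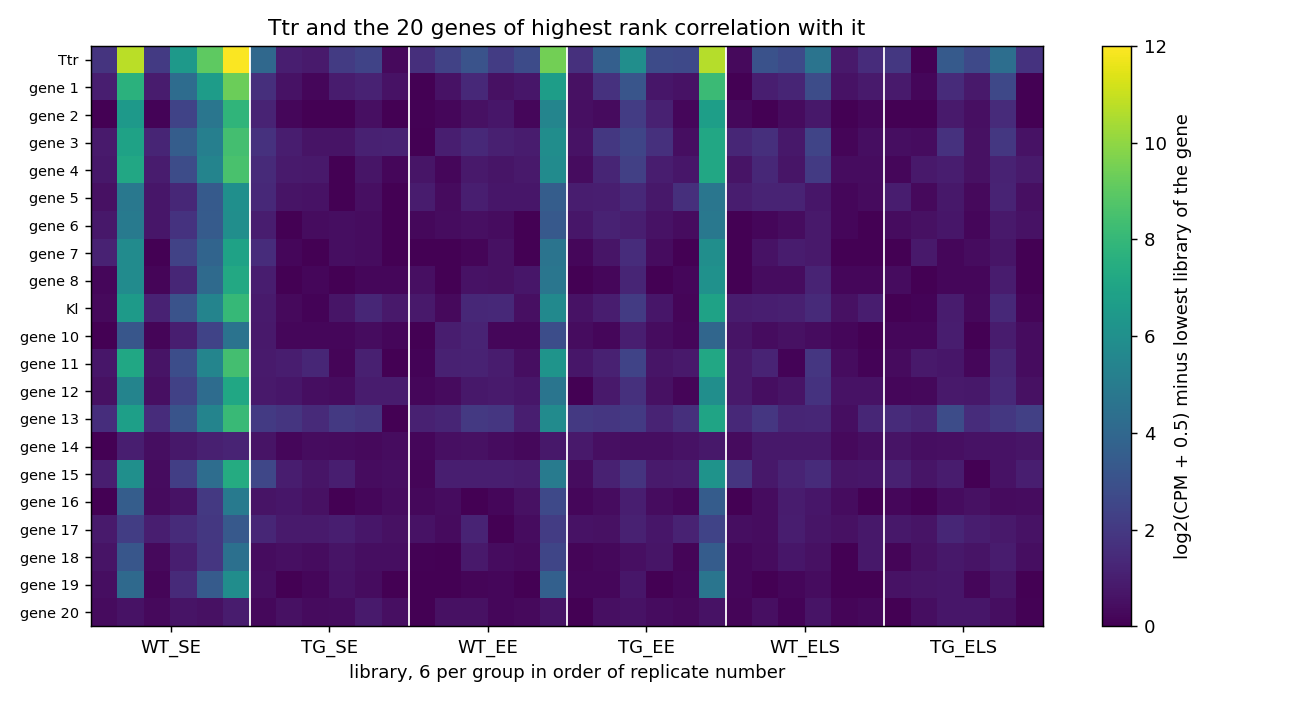
*Ttr* and the 20 genes with the highest Spearman's rho with it (rows, by rank), in 36 libraries (columns, 6 per group by replicate number), coloured by log2(CPM + 0.5) minus the gene's lowest library. Replicates 2, 5 and 6 of WT_SE, 6 of WT_EE and 6 of TG_EE stand out in 18 of the 20 rows below *Ttr*, while the genes ranked 14 and 20 vary little.

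Of the 20 genes, 14 had a mean count of at least 50 and were tested in the model. For 12 of these 14 the median count was under 50, so that they passed mainly through the libraries in which they are high. Their direction against WT_SE without surrogate variables was thus set by the choice of the genes, and the values that follow describe it and are no result about a group. With 5 surrogate variables, none of the 14 was called in any comparison, against the 0.213%, 0.411% and 0.134% of all genes called in TG/WT under SE, EE and ELS. As the first surrogate variable separated the same libraries as *Ttr*, that lack of calls cannot decide whether these genes differed between groups. In TG_SE against WT_SE, 10 of the 14 had a negative log2 fold change, with a median of −0.74, where the median over all genes was 0.00. Without surrogate variables, all 14 had a negative log2 fold change in TG_SE against WT_SE, from −7.52 to −0.09 with a median of −6.07, and 11 were called, beside the 0.656% of all genes. In WT_EE against WT_SE and in WT_ELS against WT_SE, both of which share the WT_SE animals, the median without surrogate variables was −2.77 and −5.58, and no member was called. In TG_EE against TG_SE, 13 of the 14 had a positive value, with a median of 4.46, and again none was called.

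Genes that followed *Ttr* were among those that the fit without surrogate variables called in TG_SE against WT_SE. A rho of at least 0.5 was reached by 45 of the 12657 tested genes (0.356%) and by 18 of the 83 called genes (21.7%). As such genes are high in the same libraries as *Ttr*, 4 of the 7 highest of which are in WT_SE, this share restates how they were found. With log2(CPM + 0.5) of *Ttr* as the only covariate in place of the surrogate variables, 12 genes were called, 0.0948% of those tested. Of those 12 genes, 9 were also called with the surrogate variables (75.0% of the 12 and 33.3% of the 27), and 10 were called without any covariate (83.3% of the 12 and 12.0% of the 83). The fits with surrogate variables and without any shared 10 calls, which were 37.0% of the 27 and 12.0% of the 83.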

How the data were processed

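Striatal RNA-seq libraries of 36 male rats were grouped by the genotype and environment in their labels, 6 animals per group. The authors aligned reads with STAR 2.5.2b against rat Ensembl sequence to which the human *HTT* transgene had been added, and the deposited values are raw counts per gene, not normalized. The program that counted reads per gene is not given in the sources used here. The protocols describe the library kit both as stranded and without mention of strand, so reads of overlapping antisense genes may not be told apart. The number of unmapped count columns was 0.

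CPM were counts divided by the library total. Models were fitted with edgeR 4.0.16 (TMM, in R 4.3.3), sva 3.50.0 (5 surrogate variables from svaseq, seed 1) and DESeq2 1.42.0, the main test being edgeR's quasi-likelihood test with Benjamini-Hochberg adjustment over the 12657 genes with a mean count of at least 50. The standard errors given for edgeR are the size of the log2 fold change divided by the square root of the F statistic of that test. They were not taken from the fit itself. Levels were compared with SciPy 1.17.1 by exact permutation on log2(CPM + 0.5). Total counts per library were 9895073 to 19284439, and replicate numbers follow accession order. Where nothing says that animals were of separate litters, p-values measure the spread between these animals only.

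The named genes are *Ttr*, *Kl* and the 20 highest and 5 lowest by rho with *Ttr*, of which 2 each are given by identifier. Members and lists were chosen with earlier results of these data known. The prepared lists of other markers could not be matched to identifiers and were not used. A test of the correlation of *Ttr* with *Kl* over all 36 libraries had been planned. It was replaced by that over 31, because the libraries fell into clusters. The coefficients over 36 libraries, given with the genes that followed *Ttr*, reflect these clusters and are descriptions. Alternatives were no surrogate variables, runs of library numbers or *Ttr* as covariate, other scalings, filters, pseudocounts and tests, and leaving out each animal. Leaving out the 7 libraries over 100 CPM of *Ttr* was chosen after seeing the data.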

Additional observations from a re-analysis of the deposited data

Results flagged for a closer look

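In 7 of the 12 sets of values (2 genes in 6 groups), the highest animal lay far from the other 5, by Dixon's criterion on CPM. Chance meets this criterion in about 1 of 20 groups when values are normally distributed. Its rate for skewed values such as these CPM was not tested. The 2 genes were measured in the same animals, so the 12 sets are not independent. For *Ttr*, the highest animal had 35.9 CPM in TG_SE beside a next value of 11.5 CPM, 1565 CPM in WT_EE beside 18.3 CPM, 3611 CPM in TG_EE beside 135 CPM, and 54.5 CPM in WT_ELS beside 17.3 CPM. For *Kl*, it had 191.6 CPM in WT_SE beside 69.3 CPM, 37.7 CPM in WT_EE beside 1.43 CPM, and 90.1 CPM in TG_EE beside 2.69 CPM. In WT_EE and TG_EE, the same animal, replicate 6, stood apart for both genes. *Ttr* in WT_SE did not meet the criterion, since its high values were spread over 4 animals.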

How the results depend on the processing

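Depth limits *Kl* below 100 CPM of *Ttr*, where it had 3 to 21 counts. The labels give no replicate numbers and do not say that a run of library numbers marks a shared batch or litter, so the fit with runs as covariate, the nearest to a paired one, stands among the alternatives. The cause of the changes below was not tested unless named. The 7 libraries were left out for their *Ttr* level, and only replicates 1 and 3 of WT_SE, at 7.32 and 8.51 CPM, remained. Values of *Ttr* without them, changes of sign included, were therefore fixed by that choice and say nothing about stability.

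Under another scaling of CPM or a pseudocount of 0.1, the 14 permutation tests and the correlation of *Ttr* with *Kl* kept their direction and their side of the threshold. The number of genes with a coefficient of at least 0.7 with *Ttr* was 9 by Spearman's rho, 157 by Pearson's r and 21 after subtracting group means.

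In TG_SE/WT_SE, the log2 fold change was −7.74 (*Ttr*) and −6.09 (*Kl*) without surrogate variables and −5.93 and −5.63 with runs of library numbers as covariate (edgeR adjusted p = 0.0753 and 0.00374), all called, and 0.39 for *Ttr* without the 7 libraries over 100 CPM and without surrogate variables. The number of genes called, 27, was 83 without surrogate variables, 144 with runs, 16 without a filter, 12 with *Ttr* as covariate, 14 without the 7 libraries and 4 without both these and surrogate variables. The genes tested were 12657, but 23965 without a filter and 12578 without the 7 libraries, where groups also held fewer animals. Counts of these fits are therefore not directly comparable, here and below. In TG_EE/WT_EE, *Ttr* was at −0.71 without the 7 libraries and *Kl* at −0.053 by DESeq2, and 52 calls became 21 without surrogate variables and 9 without the 7 libraries. With both the 7 libraries and the surrogate variables left out, 67 genes were called in TG_EE/WT_EE. In TG_ELS/WT_ELS, *Ttr* was at −0.046 without surrogate variables, −0.013 with runs, −0.43 without a filter and −0.047 without the 7 libraries and surrogate variables, and 17 calls became 9 without surrogate variables, 33 by DESeq2, 26 without the 7 libraries and 27 without both.

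In WT_EE/WT_SE, *Ttr* was at 0.90 without the 7 libraries and 0.59 without both, with 2 genes called by DESeq2 and 1 without the 7 libraries. In WT_ELS/WT_SE, *Ttr* was at 0.62 and 1.001 in those fits, and with runs *Kl* was called at −4.92 (edgeR adjusted p = 0.0239) among 50 genes. The interaction with EE gave −0.63 and −0.062 for *Ttr* without the 7 libraries and without both, and 6.47 for *Kl* with runs (edgeR adjusted p = 0.0558), which was called among 8 genes. The interaction with ELS gave −0.43 for *Ttr* without both, and 5.29 and 4.66 for *Kl* without surrogate variables and with runs.

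With each animal left out in turn, the permutation differences for TG_SE/WT_SE were −6.26 to −4.23 (*Ttr*) and −4.18 to −2.64 (*Kl*), and for WT_ELS/WT_SE −5.89 to −3.86 and −3.86 to −2.32. All 4 passed an adjusted p of 0.1 only without replicate 1 of WT_SE (exact permutation, adjusted p = 0.0606). Differences changed sign for TG_EE/WT_EE, −0.24 to 2.16 (*Ttr*, without replicate 6 of TG_EE) and −0.75 to 1.05 (*Kl*, without that or replicate 2 of WT_EE), and for *Ttr* in TG_ELS/WT_ELS, −0.21 to 0.68 (without replicate 1 or 5 of WT_ELS, or 3 or 5 of TG_ELS). Fitted values changed sign for *Ttr* in TG_EE/WT_EE, −0.21 to 0.87 (replicate 3 of TG_EE), *Kl* there, −0.40 to 0.52 (replicate 6 of TG_EE), *Kl* in WT_ELS/WT_SE, −0.58 to 0.12 (replicate 2 of WT_SE), *Ttr* in TG_ELS/TG_SE, −0.039 to 0.85 (replicate 5 of TG_ELS), and *Kl* in the ELS interaction, −0.85 to 0.048 (replicate 1 of WT_SE). Calls ranged from 14 to 34 in TG_SE/WT_SE (14 and 16 without replicate 1 of WT_SE or of TG_SE), 27 to 56 in TG_EE/WT_EE (27, 31 and 34 without replicates 5 and 2 of WT_EE and 5 of TG_EE), 9 to 20 in TG_ELS/WT_ELS (9, 10 and 11 without replicate 1 of TG_ELS and 2 and 6 of WT_ELS), 0 to 3 in WT_EE/WT_SE (1, 3 and 2 without replicate 1 of WT_EE, 3 of WT_SE and 4 of WT_EE), 0 to 1 in WT_ELS/WT_SE (replicate 1 of WT_SE) and 0 to 1 in the EE interaction (replicate 3 of WT_SE).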
